A study of Mus musculus with 8 samples.

Results

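The 10 genes described here encode the constant regions of mouse antibodies and the J chain. They are Ighm, Ighd, Ighg1, Ighg2b, Ighg2c, Ighg3 and Igha (heavy chains of IgM, IgD, IgG1, IgG2b, IgG2c, IgG3 and IgA), Igkc and Iglc1 (kappa and lambda light chains) and Jchain. They were chosen by gene symbol, on counts whose earlier results were known, so their levels and group differences are a description. All 10 were found among the 54532 genes of the count table, and 9 of them were among the 15472 genes that passed the expression filter. Ighg3 did not pass.

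The counts come from frozen prostate tissue of 8 male NOD/ShiLtJ mice, an inbred strain with spontaneous autoimmune disease that both groups share. From an age of 25 weeks, 4 mice received etanercept at 4 mg/kg and 4 received the PBS vehicle, by 2 intraperitoneal injections per week over 5 weeks, and tissues were collected at 30 weeks. Etanercept is a protein drug that joins a human TNF receptor to the Fc part of human IgG1 and binds TNF. The labels do not give the diabetic status of these mice or the lobes taken, and the animals are named by group and number (control 1, 3, 65 and 69, etanercept 17, 19, 50 and 52).

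An antibody is built from paired heavy and light chains. A B cell starts with IgM and IgD and, after class switching, joins its variable region to a downstream constant gene such as Ighg1 or Igha, and plasma cells then secrete the product in large amounts. J chain is the small protein that links IgA dimers and IgM pentamers, the forms that the polymeric immunoglobulin receptor carries across mucosal epithelia. In the prostate and other mucosa-lined glands, plasma cells below the epithelium are the usual source of secreted IgA.

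All 7 heavy chain genes lie on the minus strand of chromosome 12 in GRCm38, in the order Ighm (113418558 to 113422730), Ighd, Ighg3, Ighg1, Ighg2b, Ighg2c and Igha (113254830 to 113260236). Igkc is at 70726435 to 70726966 on the plus strand of chromosome 6, Iglc1 at 19061618 to 19062071 on the minus strand of chromosome 16 and Jchain at 88519809 to 88527891 on the minus strand of chromosome 5. The hinge exons are shown because they are the part in which the IgG subclasses differ most visibly. They are exon 2 of each gene in GENCODE M21, 5′ to 3′ on the coding strand, with in-frame cysteine codons in capitals, at chr12:113329844-113329882 (Ighg1), chr12:113307261-113307326 (Ighg2b), chr12:113288263-113288325 (Ighg2c) and chr12:113360529-113360576 (Ighg3). Hinge cysteines form the disulfide bridges between paired heavy chains, and in some subclasses one also binds the light chain.
Ighg1: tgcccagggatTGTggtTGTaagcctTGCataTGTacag
Ighg2b: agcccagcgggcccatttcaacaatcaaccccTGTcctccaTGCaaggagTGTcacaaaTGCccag
Ighg2c: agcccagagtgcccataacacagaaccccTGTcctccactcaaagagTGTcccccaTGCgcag
Ighg3: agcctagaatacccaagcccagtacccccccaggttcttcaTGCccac
The hinge exon held 4 cysteine codons in Ighg1 and in Ighg2b, 3 in Ighg2c and 1 in Ighg3. Secreted coding sequences of the IgG genes were between 73.1% and 85.6% identical, the highest value being that of Ighg2b and Ighg2c. No stretch of 150 nt, the read length, from any of the 10 genes occurred in an annotated transcript of another gene. The genome is that of C57BL/6J, and alleles of NOD mice were not analysed here.

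The last 60 coding bases of the secreted forms of Ighm, Igha and Ighg1 are shown because the tail of IgM and IgA is where J chain is attached, through a cysteine next to the end. That cysteine codon is in capitals. They lie on the minus strand at chr12:113420870-113420929 (Ighm), chr12:113258771-113258830 (Igha) and chr12:113328979-113329038 (Ighg1).
Ighm: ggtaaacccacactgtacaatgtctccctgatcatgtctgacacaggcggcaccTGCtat
Igha: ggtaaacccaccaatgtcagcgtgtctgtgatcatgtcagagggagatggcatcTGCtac
Ighg1: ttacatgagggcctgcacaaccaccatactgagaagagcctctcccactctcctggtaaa
Ighm and Igha each held this codon in the next-to-last position before the stop codon, and Ighg1 did not.

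Libraries held 13760669 to 25178942 counts, and the difference between the group means was within the spread of the mice (p = 0.83 in a two-sided exact permutation test, n = 4 per group). Some libraries stood apart from the rest in other tissues' transcripts. Levels are given as CPM, the counts of a gene per 1e+06 counts after TMM scaling of the libraries. Etanercept 17 held 87705 CPM of 6 seminal vesicle genes, against 3560 in control 69 and at most 601 in the other 6 mice. Control 3 alone held the fast skeletal muscle gene Myh4 above 1.27 CPM, at 352 CPM. Sbp, a secretory gene of the ventral prostate lobe, was between 1545 and 225361 CPM, highest in control 69. Pbsn, a defining gene of prostate epithelium, was between 1092 and 9156 CPM.

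The 10 genes together took a much larger share of the library in 3 of the 4 control mice than in any other mouse. Their summed counts were 1.51% of all counts in control 1 (95% Wilson interval 1.51% to 1.52%), 4.16% in control 3 (4.15% to 4.17%) and 2.33% in control 65 (2.32% to 2.34%). In control 69 the share was 0.244% (0.242% to 0.246%). The etanercept-treated mice had 0.820% (0.816% to 0.824%) in mouse 17, 0.164% (0.162% to 0.166%) in mouse 19, 0.441% (0.438% to 0.444%) in mouse 50 and 0.424% (0.420% to 0.427%) in mouse 52. Control 69 thus lay inside the range of the etanercept-treated mice and the other controls lay above it. The control group averaged 2.06% ± 1.64 and the etanercept group 0.462% ± 0.270 (± SD of 4 mice, here and below). Without control 69 the difference between the means widened from -1.60 to -2.20 percentage points, and without control 3 it narrowed to -0.900. These intervals cover counting error only. In bulk tissue, fewer antibody-producing cells and less RNA per cell cannot be told apart.

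The order of the genes by level per exon length differed between the groups. In control mice the mean level per kb of exon was highest for Igkc, at 18515 ± 13782 CPM per kb, followed by Igha (1819 ± 1606), Ighg1 (713 ± 754), Jchain (647 ± 582) and Ighg2c (354 ± 148). Ighg2b (198 ± 109), Ighm (137 ± 37.5), Iglc1 (69.2 ± 55.9), Ighd (9.61 ± 10.1) and Ighg3 (0.268 ± 0.283) were below these. From Igha to Iglc1 in this order, the means of neighbours were closer than the larger SD of the pair, apart from Ighg2c against Ighg2b and Ighm against Iglc1. The gap of Ighg2c over Ighg2b rested on annotated exon length (1326 against 2678 bases). In CPM, the control means were 469 ± 196 for Ighg2c and 529 ± 292 for Ighg2b. In etanercept-treated mice the mean for Igkc was 4821 ± 2999 CPM per kb, and Ighg1 (225 ± 157), Ighm (212 ± 110), Jchain (172 ± 88.5), Igha (140 ± 115) and Ighg2c (135 ± 77.5) followed within 1 SD of their neighbours. By mean, Igha was thus next to Igkc in control mice and below Ighg1, Ighm and Jchain in etanercept-treated mice, an order that single mice did not all follow. In control 69, Igha (48.4 CPM per kb) was below Jchain (103), Ighm (155) and Ighg1 (53.4), and in etanercept 50, at 175 CPM per kb, it was above Jchain (164), Ighg1 (141) and Ighm (135).

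**Figure D1:**
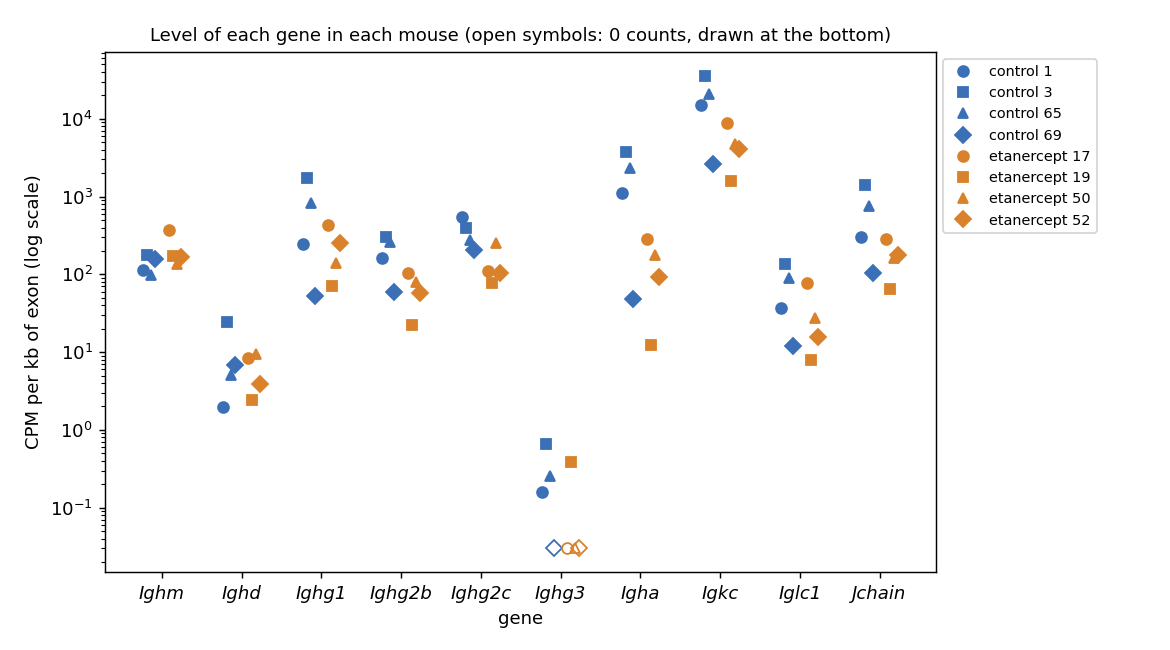
Level of each of the 10 genes in each mouse, in CPM per kb of annotated exon on a log axis, with control mice in blue and etanercept-treated mice in orange, and 1 symbol per animal. Control 69 lies below the other control mice for Igha, Ighg1, Ighg2b, Ighg2c, Igkc, Iglc1 and Jchain, and Ighg3 has 0 counts in 4 mice.

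No gene of the whole table passed an adjusted p of 0.05 in edgeR's quasi-likelihood test (0 of 15472 genes, 0%), so 0 of the 9 tested members were called. The smallest adjusted p of any gene was 0.739. Without adjustment, 1024 genes had a p of at most 0.05, of which 561 were lower (3.63%) and 463 higher (2.99%) after etanercept. Of the members, 5 of 9 were among the lower genes and 0 among the higher ones. These 5 were Igha, Ighg2b, Ighg2c, Igkc and Jchain. The median log2 fold change of the 9 members was -1.59, against -0.01 over all tested genes, and 8 of the 9 were negative, against 51.0% of all tested genes. In DESeq2, 21 genes were called (0.0898%), again with 0 members, although 5 members, all lower, had a p of at most 0.05 before adjustment, as did 841 lower genes (3.6%) and 524 higher ones (2.24%) of the 23393 tested. Groups did not overlap in CPM for 4.94% of the tested genes and for 0 of the 9 members.

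**Figure D2:**
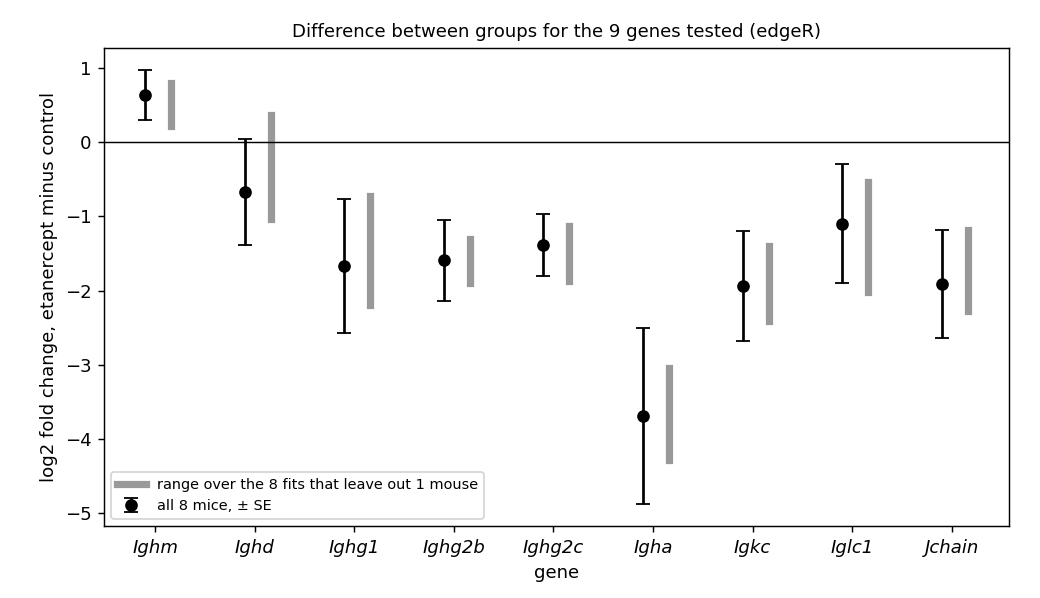
Log2 fold change of etanercept-treated over control mice for the 9 tested genes in edgeR, with points and bars for the estimate ± SE over 8 mice and grey bars for the range over the 8 fits that each leave out 1 mouse. Igha has the lowest estimate, -3.69, Ighm is above 0, and the range of Ighd crosses 0.

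Igha, the heavy chain of IgA, varied most among the members with counts in every mouse, 307-fold between the highest and the lowest mouse. Its level was 2954, 10069, 6256 and 129 CPM in control 1, 3, 65 and 69. It was 753, 32.8, 467 and 247 CPM in etanercept 17, 19, 50 and 52. The groups overlapped through control 69 alone, which lay between etanercept 19 and etanercept 52, and the other 3 controls lay above every etanercept-treated mouse. Etanercept-treated over control mice, Igha had a log2 fold change of -3.69 ± 1.19 (SE, n = 4 per group) with an adjusted p of 0.739 in edgeR. Without control 69 it was -4.10 ± 0.87 with an adjusted p of 0.274, and without control 3 it was -3.05.

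The IgG heavy chains were lower on average as well but differed in which mice were high. Ighg1, the heavy chain of the subclass associated with help from type 2 T cells, was 638, 4491, 2125 and 138 CPM in control 1, 3, 65 and 69 and 1119, 186, 366 and 659 CPM in etanercept 17, 19, 50 and 52. Its lowest value was in a control mouse and its range within the control group was 32.5-fold, larger than the difference between the groups. On the log2 scale the difference was -1.67 ± 0.91 (edgeR, adjusted p = 0.787), and -0.73 without control 3.

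Ighg2b, whose product fixes complement, was 439, 813, 704 and 161 CPM in the control mice and 275, 60.4, 211 and 155 CPM in the etanercept-treated mice, each in the order given above. Control 1, 3 and 65 lay above all etanercept-treated mice and control 69 among them, as for Igha. The log2 fold change was -1.59 ± 0.54 (edgeR, adjusted p = 0.739). Ighg2c, the subclass associated with interferon-gamma responses, was 717, 526, 363 and 271 CPM in the control mice and 147, 102, 331 and 137 CPM in the etanercept-treated mice. Only etanercept 50 reached into the control range, above control 69. Its log2 fold change of -1.39 ± 0.42 had the smallest unadjusted p of the members, 0.00799 (edgeR, adjusted p = 0.739). Ighg2c varied least of the 4 IgG genes within the control group, 2.65-fold.

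Ighg3, which encodes a subclass known from responses to carbohydrate antigens, was near the limit of detection. It had 11, 25, 9 and 0 counts in the control mice and 0, 18, 0 and 0 counts in the etanercept-treated mice. In the 4 mice with 0 counts, the limit that a count of 0 allows (3 counts) was between 1.59e-05% and 2.11e-05% of the library, and no fold change is given.

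Ighm and Ighd are the heavy chains that naive B cells carry. Ighm did not follow the switched heavy chains, whereas Ighd was lower on average, as those were. Ighm was 213, 339, 185 and 293 CPM in the control mice and 707, 328, 255 and 312 CPM in the etanercept-treated mice. The groups overlapped, and etanercept 17 was the highest mouse. Its log2 fold change was 0.64 ± 0.34 (edgeR, adjusted p = 0.787), and 0.21 without etanercept 17. Ighm varied least of all members over the 8 mice, 3.81-fold. Ighd was 3.75, 46.5, 9.77 and 13.1 CPM in the control mice and 16.2, 4.59, 17.8 and 7.33 CPM in the etanercept-treated mice. Its log2 fold change of -0.67 ± 0.72 (edgeR, adjusted p = 0.927) changed sign to 0.37 without control 3, the mouse with the highest level.

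Isotype shares were taken as each heavy chain gene's counts per exon length over the sum of the 7 heavy chain genes. On this length, IgA made up the largest share in 3 control mice and in no other mouse. The IgA share was 50.9%, 58.9%, 61.6% and 9.16% in control 1, 3, 65 and 69, and 21.5%, 3.41%, 22.2% and 13.6% in etanercept 17, 19, 50 and 52. The means were 45.1% ± 24.4 and 15.2% ± 8.76. The difference of the means, -30.0 percentage points, was between -41.95 and -24.5 over the mice left out, the largest being that without control 69. Control 69 again lay within the etanercept-treated range.

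The IgM share was lowest in the 3 control mice with most IgA. It was 5.20%, 2.80%, 2.58% and 29.4% in the control mice and 28.6%, 48.3%, 17.1% and 24.4% in the etanercept-treated mice, with means of 10% ± 13 and 29.6% ± 13.3. The level of Ighm in CPM varied 3.81-fold and that of Igha 307-fold over the same mice. IgD was between 0.0909% and 1.30% in control and between 0.570% and 1.19% in etanercept-treated mice.

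The 4 IgG genes together made up 43.8%, 38.0%, 35.7% and 60.1% of heavy chain level in the control mice and 49.2%, 47.7%, 59.5% and 61.4% in the etanercept-treated mice. The means were 44.4% ± 11 and 54.4% ± 6.99, and the groups overlapped. Within IgG, the dominant subclass differed from mouse to mouse in both groups. IgG1 was 71.2% of IgG in control 3, 60.4% in control 65, 66.9% in etanercept 17 and 61.1% in etanercept 52. IgG2c was 56.9% in control 1, 64.3% in control 69, 44.8% in etanercept 19 and 53.1% in etanercept 50, and was the largest IgG subclass in these 4 mice. IgG2b stayed between 12.5% and 19.4% of IgG in all 8 mice. Which of IgG1 and IgG2c was larger in etanercept 19 and 50 depended on the length used, as given below.

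**Figure D3:**
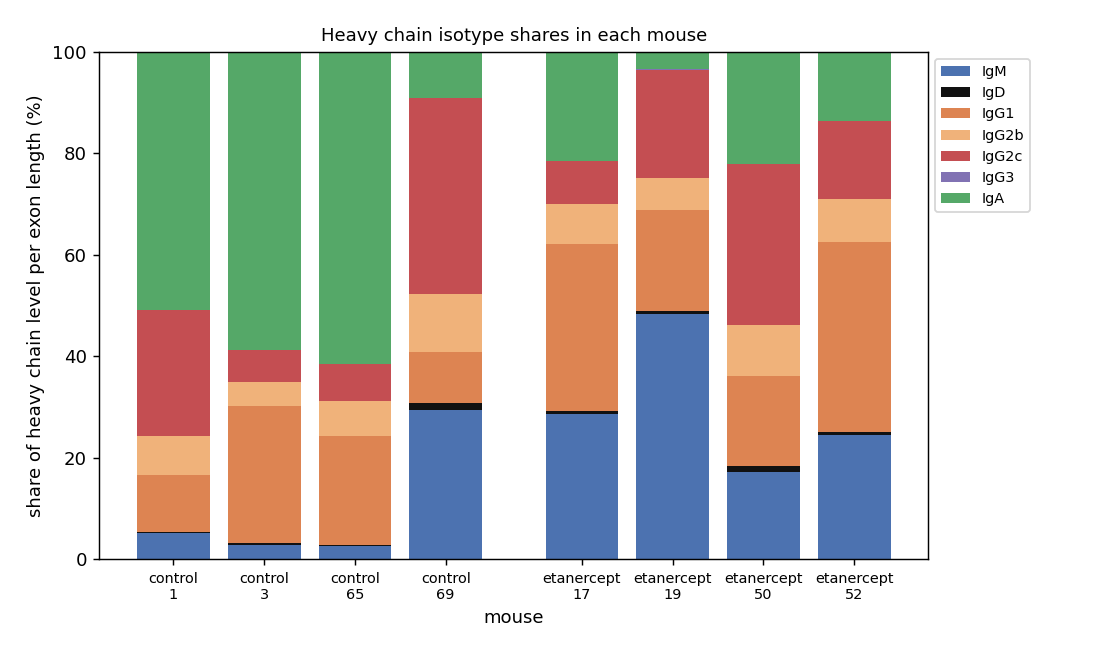
Stacked shares of the 7 heavy chain genes in each mouse, in percent of their summed counts per exon length. IgA (green) is at least 50.9% in control 1, 3 and 65 and at most 22.2% in control 69 and the etanercept-treated mice, where IgM (blue) takes 17.1% to 48.3%.

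The choice of length moved these shares and, in some mice, their order. The annotated exons of Ighg1, Ighg2b, Ighg3 and Igha sum to between 2512 and 2678 bases and include long 3′ ends of the membrane forms, while those of Ighg2c sum to 1326 bases. With the length of the secreted transcript of each gene, an alternative chosen after the values were seen, the mean IgG2c share was 12.5% for the controls and 12.8% after etanercept, against 19.2% in both groups per exon length. The mean IgA share was 50.2% and 19.5%, and the difference -30.7 percentage points. On that length IgG1 exceeded IgG2c in etanercept 19 (30.1% against 16% of heavy chain level) and in etanercept 50 (23.5% against 20.6%), and IgA, at 29.4%, exceeded each single IgG gene in etanercept 50. Control 1 and control 69 had more IgG2c than IgG1 on both lengths. Gene counts do not separate membrane from secreted forms.

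The ratio of Igha to Ighg1 per exon length was 4.50, 2.18, 2.86 and 0.906 in the control mice. It was 0.654, 0.171, 1.24 and 0.364 in the etanercept-treated mice. Igha exceeded Ighg1 in 3 control mice and in etanercept 50.

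The light chain genes were lower on average in etanercept-treated mice, as were the switched heavy chains. Igkc, the single kappa constant gene, was 8008, 19080, 10920 and 1391 CPM in the control mice and 4694, 842, 2521 and 2201 CPM in the etanercept-treated mice. The groups overlapped through control 69 alone. The fitted log2 fold change was -1.94 ± 0.74 (edgeR, adjusted p = 0.739), -2.30 without control 69 and -1.40 without control 3.

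Iglc1, the first of the lambda constant genes, was 16.9, 62.3, 41.1 and 5.43 CPM in the control mice and 35.3, 3.63, 12.5 and 7.12 CPM in the etanercept-treated mice. Etanercept 17 lay above control 1, so that the overlap did not rest on control 69 alone. On the log2 scale the groups differed by -1.10 ± 0.80 (edgeR, adjusted p = 0.853), -2.02 without etanercept 17 and -0.53 without control 3.

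Kappa took nearly all light chain level in every mouse, as is usual in mice. Over Igkc and Iglc1 per exon length, the kappa share was 99.8%, 99.6%, 99.6% and 99.5% in the control mice and 99.1%, 99.5%, 99.4% and 99.6% in the etanercept-treated mice. The means were 99.6% ± 0.0952 and 99.4% ± 0.210. With Iglc2 and Iglc3 added, the means were 99.0% ± 0.374 and 98.4% ± 0.430. The coding sequences of Iglc2 and Iglc3 are 96.2% identical, so the split of reads between them is uncertain.

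Light chain level per exon length was between 4.42 and 6.94 times heavy chain level, with means of 5.74 ± 0.847 and 5.85 ± 1.0. This ratio varied 1.57-fold over mice in which the summed CPM of the 10 genes varied 22.6-fold.

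Jchain was 771, 3563, 1925 and 259 CPM in the control mice and 708, 163, 412 and 451 CPM in the etanercept-treated mice. Control 1, 3 and 65 lay above the etanercept-treated mice, control 1 by a small margin over etanercept 17, and control 69 lay among them. The log2 fold change was -1.91 ± 0.72 (edgeR, adjusted p = 0.739), and -1.18 without control 3. Relative to its partners, Jchain per exon length over the sum of Ighm and Igha was 0.251, 0.358, 0.313 and 0.506 in the control mice and 0.428, 0.349, 0.527 and 0.694 in the etanercept-treated mice. The means were 0.357 ± 0.108 and 0.500 ± 0.149, and the groups overlapped. The difference of 0.14 was 0.19 without control 69 and 0.08 without etanercept 52. The ratio spanned 2.76-fold, against 21.8-fold for Jchain, 307-fold for Igha and 3.81-fold for Ighm alone.

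Across the 8 mice, Igha, Igkc, Jchain, Ighg2b, Ighg1 and Iglc1 varied together. Pearson's r of log2(CPM + 1) between pairs of these 6 genes was between 0.854 and 0.991, the highest value being that of Igha and Igkc. Ighm had r of -0.245 with Igha and -0.548 with Ighg2c. Ighd had r of 0.522 with Ighg1, 0.474 with Ighg2b, 0.238 with Ighg2c and 0.427 with Igha. Ighg2c had r of 0.421 with Ighg1 and 0.784 with Ighg2b. These values describe 8 mice of 2 groups that share libraries and depth, and no test was made.

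DESeq2 without control 69, a fit added because earlier results showed the weight of this mouse, called 5 of the 10 members, all lower in etanercept-treated mice. In that fit 0.74% of the genes were called lower, and the calls also took in 4 of 11 T cell genes, 2 genes each of the plasma cell list and the survival and homing list, and 1 gene each of the macrophage and adipocyte lists. The 5 were Igha (log2 fold change -4.10 ± 0.80, adjusted p = 2.81e-04), Igkc (-2.31 ± 0.46), Jchain (-2.27 ± 0.49), Ighg2b (-1.90 ± 0.42) and Ighg2c (-1.58 ± 0.39). The largest adjusted p among them was 0.00848. DESeq2 without etanercept 50 called Ighg2c alone (adjusted p = 5.93e-04), where 0.061% of the genes were called lower. The other 6 fits of DESeq2 that left out 1 mouse called 0 members, and all 8 such fits of edgeR called 0 members. With control 3 and etanercept 17 left out together, edgeR gave Igha a log2 fold change of -3.64 and Ighg1 one of -1.26, and both tools called 0 members.

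Plasma cell genes gave a mixed picture beside the antibody genes. Of 13 listed genes, 12 were tested, 0 were called and 10 had negative fold changes (median -0.36). Mzb1, a chaperone of IgM and IgA assembly in B and plasma cells, was 50.1, 242, 122 and 34.0 CPM in the control mice and 51.3, 13.6, 25.8 and 30.9 CPM in the etanercept-treated mice. It alone of the list passed 0.05 without adjustment (log2 fold change -1.88 ± 0.62, edgeR, adjusted p = 0.739). The 3 most abundant genes were Xbp1, the regulator of the secretory programme (-0.35 ± 0.23), the protein disulfide isomerase gene Txndc5 (-0.38 ± 0.19) and Tent5c, which stabilises immunoglobulin mRNA (-0.08 ± 0.20). Prostate epithelium is secretory and also uses Xbp1 and other genes of this list. Tnfrsf17, the receptor that marks plasma cells, was at most 2.25 CPM and at 0 in etanercept 17 and 19.

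The 15 B cell genes were all tested, with 0 called, 14 negative fold changes, a median of -0.59 and 0 that passed 0.05 before adjustment. Cd79a, part of the B cell receptor, was -0.99 ± 0.57, Cd79b, its partner, -0.59 ± 0.60, and Pax5, the B lineage factor, -0.93 ± 0.49. The 15 genes together were at 140 to 551 CPM in control and 78.2 to 279 CPM in etanercept-treated mice. Of 12 class switch and germinal centre genes, 0 were called and 4 were negative (median 0.08). S1pr2, a receptor of germinal centre B cells, was 0.38 ± 0.60 and Bcl6, the germinal centre factor, 0.08 ± 0.39. Batf, a factor needed for switching, alone passed 0.05 without adjustment (-1.47 ± 0.58, edgeR, adjusted p = 0.739).

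Among 10 tested genes of antibody transport and Fc receptors, 0 were called and 7 were negative (median -0.64). Pigr, the polymeric immunoglobulin receptor, was 420 to 1050 CPM in control and 173 to 1426 CPM in etanercept-treated mice (0.03 ± 0.63). Fcgrt, the neonatal Fc receptor, was -0.51 ± 0.28, and Fcgr2b, the inhibitory Fc receptor, -1.06 ± 0.52. The Fc receptor gene Fcgr1 alone passed 0.05 without adjustment, with -1.47 ± 0.54. Of 15 tested genes of plasma cell survival and homing, 0 were called and 13 were negative (median -0.53). Cxcl13, which attracts B cells, was -0.97 ± 0.34, Cxcl12, which retains plasma cells, -0.26 ± 0.28, and Vcam1, an adhesion molecule, -0.38 ± 0.45. Unadjusted p-values of at most 0.05 were found for 5 genes, Cxcl13, Cxcr4, Itgb7, Tnfrsf13b and Ccr10, the last being a homing receptor of IgA plasma cells (-2.69 ± 1.14, edgeR, adjusted p = 0.743).

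**Figure D4:**
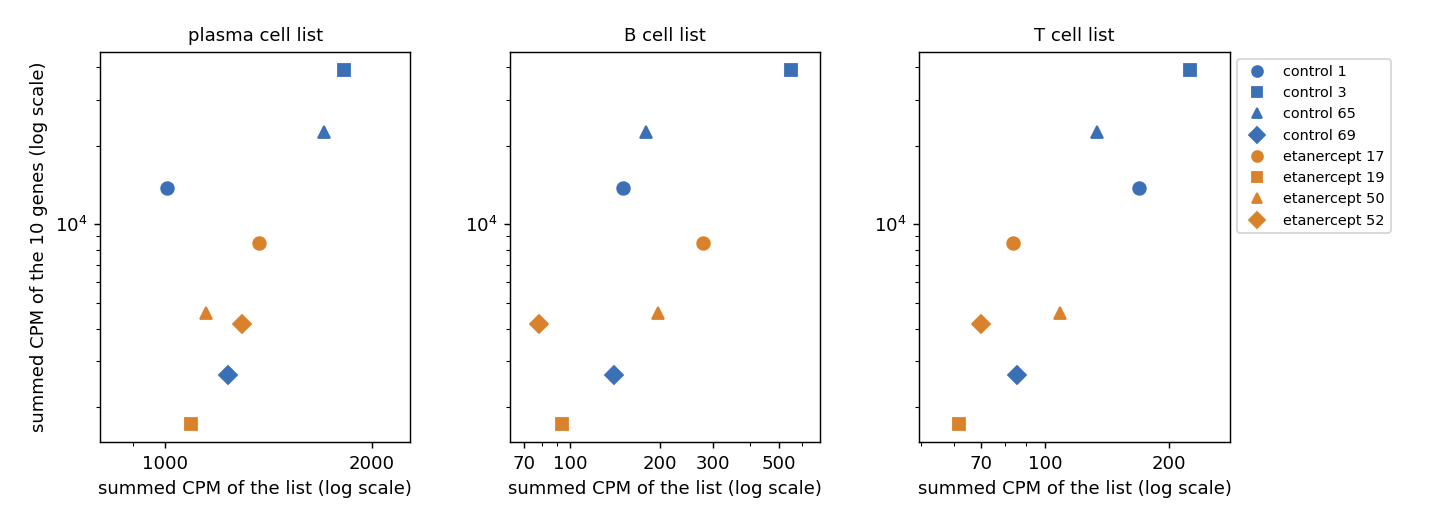
Summed CPM of the 10 antibody genes against the summed CPM of the plasma cell, B cell and T cell lists in each mouse, on log axes, with control mice in blue and etanercept-treated mice in orange. Control 3 is highest in each list, and etanercept 19 is lowest for the antibody genes.

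Lymph node and lymphoid stroma genes were scarce. Of 8 found in the table, 3 were tested (Ltb, Glycam1 and Lta), 0 were called, 1 passed 0.05 before adjustment (Ltb, -0.79 ± 0.35), and Ccl21a and Clec4g were at 0 in all mice. Their sum was 20.2 to 52.7 CPM in control and 12.6 to 35.3 CPM in etanercept-treated mice. Of 3 tested constant genes outside the members, Iglc2 was -1.12 ± 0.57, Iglc3 -1.20 ± 1.08 and Ighe, the heavy chain of IgE, -0.83 ± 1.72, with 0 called and 0 that passed 0.05 before adjustment. The surrogate light chain genes Igll1 and Vpreb2 were at 0 in all mice.

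Markers of other cells differed between the mice too, and their part in the antibody gene differences was not tested. The T cell list was 85.4 to 225 CPM in control and 61.9 to 109 CPM in etanercept-treated mice, with 11 of 11 tested genes negative (median -1.05) and 4 with p below 0.05 before adjustment. The macrophage list was 471 to 1518 CPM in control and 417 to 563 CPM in etanercept-treated mice, with 9 of 9 negative (median -0.49) and 3 with such a p. Prostate epithelium genes summed to 15063 to 248378 CPM in control and 16894 to 201569 CPM in etanercept-treated mice, with 6 of 10 negative and 0 with such a p. Seminal vesicle genes were at 0 in control 1 and 3, and 0 of the 3 tested were negative or had such a p. Skeletal muscle genes were 69 to 1714 CPM in control and 688 to 1311 CPM in etanercept-treated mice, with 3 of 4 tested negative and 1 with such a p. Adipocyte genes were 4.15 to 99.4 CPM in control and 0.698 to 7.95 CPM in etanercept-treated mice, with 4 of 4 tested negative and 3 with such a p. The list genes held 0 calls in edgeR and 1 in DESeq2, the adipocyte hormone gene Retn (adjusted p = 3.25e-05), which was named after its values were seen.

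The genes outside the immunoglobulin loci whose log2(CPM + 1) was most like that of the 10 genes summed, over 8 mice, were Snx20 (r = 0.989), Napsa (0.968), Ly6d (0.965), Slpi (0.962), Itgal (0.962), Tigit (0.960), Ubd (0.957), Arhgap25 (0.957), C4b (0.956) and Cyba (0.955). Spearman's rho was between 0.905 and 1. Without control 3 and control 65, the mice farthest from the median of the sum, r was between 0.890 and 0.992. Mzb1 was 15th of 15379 genes with r = 0.948, Cd79a had 0.810, Ms4a1, a B cell surface gene, 0.511, Pigr -0.196 and Sbp -0.490. Snx20, an adaptor of leukocyte adhesion, was between 2.03 and 3.83 on this log2 scale. Slpi, a secreted protease inhibitor of epithelia, was between 4.65 and 9.15.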

How the data were processed

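Poly(A)-selected RNA of 8 prostates was sequenced as paired reads of 150 nt. Per the submitters' processing notes, fastp, STAR 2.6.1d, featureCounts 1.5.0-p3, DESeq2 1.26.0 and the build mm10 were used. The authors deposited whole-number counts per gene without normalization. The annotation, strand setting and treatment of multi-mapped reads are not given in the sources used here. All 8 columns were mapped to a mouse by animal number.

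Genes were named, located and measured in exon length with GENCODE M21 (GRCm38), which held 54495 of 54532 identifiers. Sequences and identities were taken from the same release with Biopython 1.88. Groups were compared with the quasi-likelihood test of edgeR 4.0.16 under R 4.3.3, on TMM-scaled counts of genes that passed filterByExpr (minimum 10), adjusted by Benjamini-Hochberg over 15472 genes, with a threshold of 0.05. The SE is the log2 fold change over the root of the F statistic. DESeq2 1.42.0 was an alternative. The edgeR fit was tested on simulated data. Shares and ratios are per mouse, with no test. Total counts were compared with an exact permutation test over 70 assignments of the mice (scipy 1.17.1).

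By the rule for named genes, all members, the 3 most abundant tested genes of each of 13 lists, any called gene, listed genes at 0 and the 10 genes most like the members' sum were named, the lists of other cell types being given by counts. Some listed genes are not reported here by name. The members and lists were chosen with earlier results of these data known. Totals of 13760669 to 25178942 counts per mouse set the precision. Each mouse is 1 replicate.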

Additional observations from a re-analysis of the deposited data

Results flagged for a closer look

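With 4 mice per group, a value was marked where its gap to the nearest mouse exceeded Dixon's critical share of the group's range, which chance gives in about 1 in 20 groups. Of 42 groups of 4 mice examined over the members' levels and shares, 4 were marked. The IgM share of control 69, 29.4%, lay far above the 2.58% to 5.20% of the other control mice. The IgD share of etanercept 50, 1.19%, lay above the 0.570% to 0.671% of the other etanercept-treated mice. Etanercept 19 was the one etanercept-treated mouse with counts for Ighg3, at 0.972 on the log2(CPM + 1) scale and an IgG3 share of 0.106%, with the other 3 mice at 0. Both of its marks rest on the same 18 counts, and with the other mice at 0 any count would have been marked. Levels and shares are also not independent, so 4 of 42 cannot be set against 1 in 20. The level of Igha in control 69 was not marked, since the other controls also spread widely.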

How the results depend on the processing

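No paired analysis was possible because the animal numbers of the groups do not overlap. Of 355 repeats over all results and settings, 338 kept their direction and side of the threshold, a similar count of calls or, for differences in share and ratio, moved by less than the spread between mice, and 10 of these changed sign, all of them small differences in IgG share. The IgG2c difference of -0.05 percentage points ranged from -4.40 to 6.43 without 1 mouse and was 4.35 in pooled counts, 0.11 on coding length and 0.22 on secreted length. That of IgG2b turned from 0.53 to -0.44 without control 3 and -0.09 without etanercept 50, and that of IgG3 from 0.02 to -0.01 without etanercept 19. With DESeq2 in place of edgeR, 21 genes and 1 list gene were called in place of 0 and 0. In DESeq2, leaving out 1 mouse gave 9 to 253 genes, 0 to 5 members and 1 to 10 list genes called, the highest numbers being those without control 69, and leaving out control 3 and etanercept 17 together gave 10 genes. The edgeR fits without 1 mouse gave 0 calls of any gene. The log2 fold change of Ighd turned from -0.67 to 0.37 without control 3 (range -1.04 to 0.37 over the mice left out) and to 0.17 without control 3 and etanercept 17. Over scaling, filter and tool, that of Igha was between -3.82 and -3.64 and that of Ighm between 0.56 and 0.72. The difference in kappa share was -0.202 percentage points, -0.605 with Iglc2 and Iglc3 added and -0.105 without etanercept 17. The cause of these shifts was not tested.

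The alternatives for DESeq2 without single mice, for the secreted length and for 2 mice left out together were chosen after seeing the data. The common biological coefficient of variation over all tested genes, not that of a single member, was 0.547. With 4 mice per group, leaving out 1 mouse moved the log2 fold change of Ighg1 between -2.20 and -0.73. Among the constant region genes, Ighg3, Ighe and Iglc3 had 0 counts in 1 or more mice.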

Other observations

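Variable segments of the kappa and heavy chains gave fewer counts than the constant genes of the same chain. Counts on annotated kappa variable genes were between 3246 and 19239 per mouse. On heavy chain variable genes they were between 992 and 12305, and on lambda variable genes between 99 and 1605. The lambda variable counts were above those of Iglc1 in every mouse except etanercept 17 (1605 against 936 in control 3, 499 against 607 in etanercept 17). Iglc1 held only 20.4% to 50% of the counts of Iglc1, Iglc2 and Iglc3 in single mice. Against these lambda constant genes together, the lambda variable counts were lower in every mouse. In control 1, Igkc had 221867 counts and all kappa variable genes together 4086, whereas in control 3 the numbers were 286653 and 19239. In etanercept 19 they were 15775 and 3246. All genes of the immunoglobulin biotypes together, without Jchain, made up 1.46%, 4.03%, 2.21% and 0.258% of counts in control 1, 3, 65 and 69 and 0.796%, 0.172%, 0.439% and 0.444% in etanercept 17, 19, 50 and 52, the same order of mice as for the 10 genes except for etanercept 50 and 52.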
